A study of Mus musculus with 6 samples.

Results

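Enzymes that make pyrimidine nucleotides and supply deoxynucleotides were followed across the arrays: Cad, Dhodh, Umps, Ctps, Tyms, Rrm1, Rrm2, Dut and Dctpp1. All probes of the raw array table whose platform gene symbol is one of these 9 names were taken, which gave 25 of 45281 probes. A probe was kept when 3 or more of the 6 arrays detected it, that is, gave it a detection p under 0.05. That left 23 of the 25 probes, and all 9 genes were among the 10209 that could be tested. The 2 probes below the filter both belong to Dhodh.

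The series concerns N-Me, an enhancer of the proto-oncogene Myc that is bound by the receptor-derived transcription factor NOTCH1. RNA of 6 C57 BL6 mice was labelled with biotin and read on Illumina bead arrays, 1 mouse per array. The WT vehicle group held 3 wild-type mice given corn oil alone, and the KO tamoxifen group held 3 conditional knockout mice given 3 mg/kg tamoxifen in corn oil, each by the intraperitoneal route. The stated time of processing was 40 h. Genotype and tamoxifen changed together, so their parts in any difference cannot be told apart. The labels give no recombinase, driver, tissue or age.

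Pyrimidine rings are built on a small precursor and then joined to ribose phosphate. The multi-domain protein CAD carries out the opening steps, DHODH oxidises the ring at the mitochondrial inner membrane, UMPS makes UMP, and CTP synthase turns UTP into CTP. Ribonucleotide reductase, made of the large subunit RRM1 and the small subunit RRM2, converts ribonucleotides to deoxyribonucleotides. Thymidylate synthase (TYMS) makes dTMP from dUMP, DUT breaks down dUTP so that uracil stays out of DNA, and DCTPP1 hydrolyses dCTP and modified dCTP analogues. Growing lymphocytes depend on these supplies, and Cad is a textbook target of MYC.

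Signals were background-corrected, quantile-normalised and put on the log2 scale, and values given here are normalised log2 signals or log2 differences of KO tamoxifen minus WT vehicle. Each gene was represented by its brightest kept probe, and limma tested all 10209 genes together. A gene was called at a Benjamini-Hochberg adjusted p under 0.05. Arrays had median raw signals of 121.8 to 132.4 and 18215 to 19486 detected probes. The number of arrays limits the precision. The Myc transcript fell by 1.75 ± 0.16 (SE), from 8.91 ± 0.15 (SD, n = 3) for WT to 7.16 ± 0.24 (SD, n = 3) for KO (limma, adjusted p = 0.000406). That measures the transcript and not the enhancer. The fall of Myc rests on a single probe. Its other probe, with raw signals of 101.3 to 121.8, was below the detection threshold throughout. The size of the fall depended on the background step. The log2 difference was -1.25 without background correction and -1.44 when negative controls were not inferred, and Myc stayed called in both cases. Without a tissue label, marker genes were read from the arrays. Of 13 thymocyte and T cell markers 9 passed the filter, as did 6 of 8 erythroid and 7 of 9 macrophage and dendritic cell markers. All 7 neutrophil markers passed too, with 7 of 9 of stroma, endothelium and epithelium and 3 of 7 B cell markers. Of all 45281 probes 19082 were kept, so passing the filter does not single out a tissue.

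Of the 9 genes, 5 fell, 1 rose and 3 did not pass the test. The falls were in Dctpp1, Dut, Cad, Ctps and Dhodh, the rise was in Rrm2, and Umps, Tyms and Rrm1 were not called. Over all tested genes 17.1% were called lower and 19.7% higher, 36.9% in either direction. The 9 genes were chosen with earlier results of these data known. The median log2 difference of the 9 genes was -0.52, and that of all tested genes was 0.0011. By role, 3 of the 4 pyrimidine synthesis genes fell, neither thymidylate synthase nor either reductase subunit fell, and both of the 2 pool-cleaning genes fell. In bulk RNA, fewer cells of a type and less RNA per cell cannot be told apart. The exact permutation test of 3 arrays against 3 cannot go below p = 0.1, and each of the 6 called genes gave that smallest value (2-sided). Any gene whose groups do not overlap gives it, which held for 50.5% of all tested genes, so it adds nothing to the calls.

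**Figure D1:**
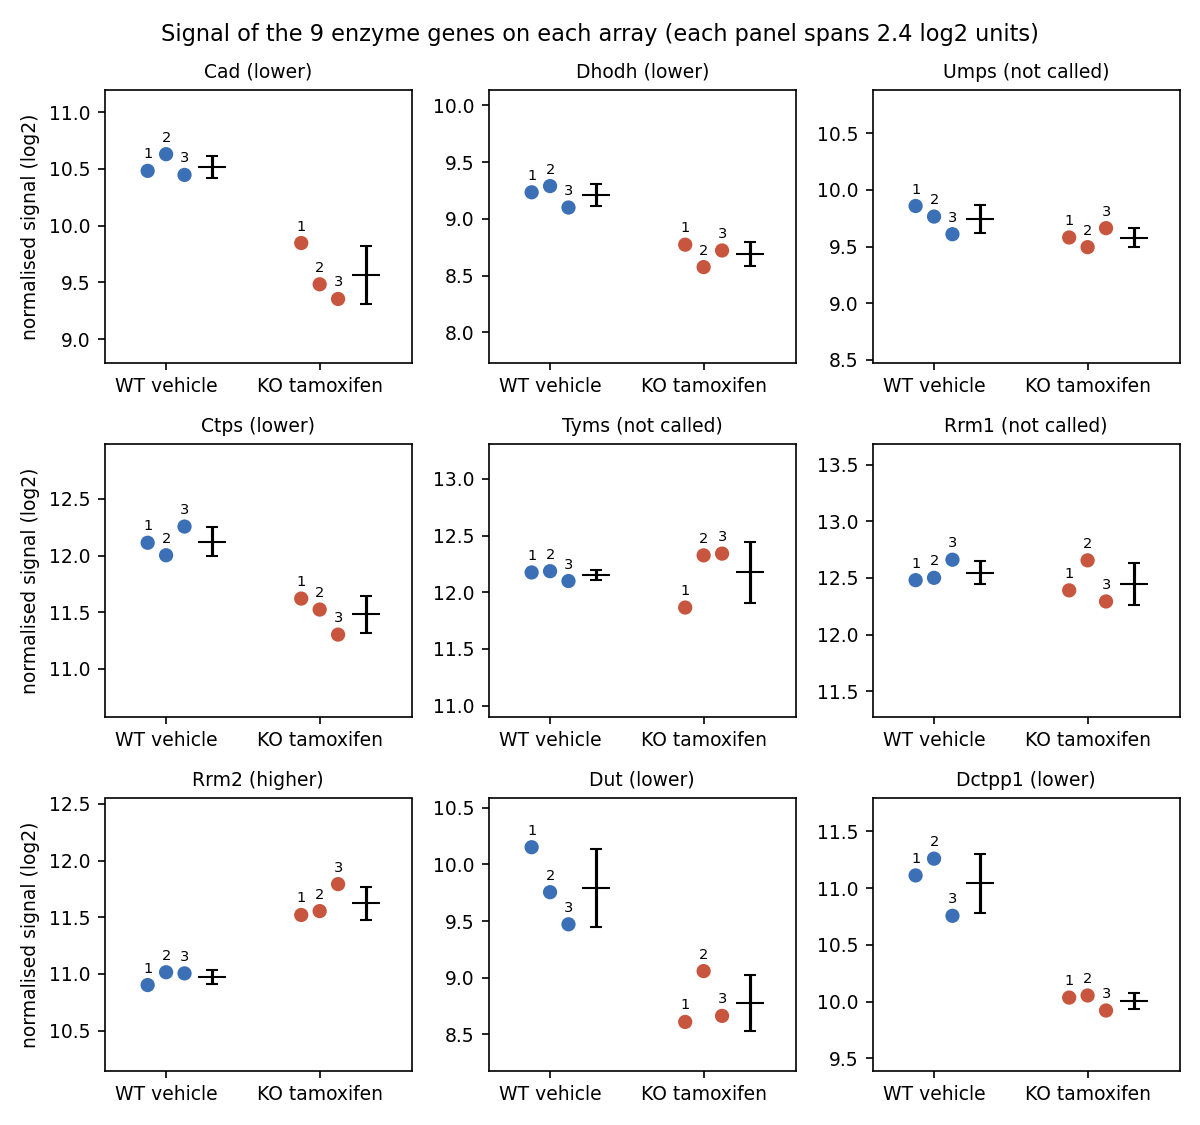
Normalised log2 signal of the 9 enzyme genes, 1 panel per gene, with blue points for WT vehicle arrays, red points for KO tamoxifen arrays, array numbers above the points, and the mean with its SD beside them. The groups are apart for Cad, Dhodh, Ctps, Dut and Dctpp1 (lower in KO) and for Rrm2 (higher in KO), and they overlap for Umps, Tyms and Rrm1.

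Cad, which starts the pathway, read 10.48, 10.63 and 10.45 on the WT arrays and 9.85, 9.48 and 9.35 on the KO arrays. All KO arrays lay below all WT arrays, and KO replicate 1 was the nearest to WT. The groups did not overlap for 50.5% of all tested genes, with KO lower for 24.4%. Cad was 1.94-fold lower in KO, a log2 difference of -0.96 ± 0.15 (SE, limma, adjusted p = 0.00258). Its mean was 10.52 ± 0.10 (SD, n = 3) for WT and 9.56 ± 0.26 (SD, n = 3) for KO.

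Dhodh, the mitochondrial step, read 9.23, 9.29 and 9.10 in WT and 8.77, 8.57 and 8.72 in KO. The groups did not overlap, and the gap between the lowest WT and the highest KO array was smaller than for Cad. The log2 difference was -0.52 ± 0.12 (SE, limma, adjusted p = 0.0124), the smallest of the 5 falls. A pair of further Dhodh probes was not detected on any array, with raw signals of 115.8 to 131.1, so the fall of this gene rests on 1 probe.

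Umps, the enzyme that forms UMP, read 9.86, 9.76 and 9.61 in WT and 9.58, 9.49 and 9.66 in KO. The groups overlapped, since KO replicate 3 lay above WT replicate 3. The log2 difference of -0.16 ± 0.13 (SE) did not pass (limma, adjusted p = 0.333), and its 95% interval ran from -0.45 to 0.12. The 3 further kept probes of Umps were at -0.45, -0.77 and -0.10 when each kept probe was tested on its own, with adjusted p of 0.0630, 0.0516 and 0.760. The groups did not overlap for the -0.45 and -0.77 probes, with KO lower, as for 24.4% of all tested genes. None of the 4 Umps probes passed the test (limma over all kept probes), and their changes ranged from -0.77 to -0.10.

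Ctps, which makes CTP, read 12.11, 12.003 and 12.26 in WT and 11.62, 11.52 and 11.30 in KO. Every KO array lay below every WT array. The gene was 1.56-fold lower, a log2 difference of -0.64 ± 0.14 (SE, limma, adjusted p = 0.00791). Its 3 kept probes gave nearly the same change, from -0.66 to -0.64, and all 3 were called lower. The paralog Ctps2, a second CTP synthase gene, read 7.71, 7.32 and 7.59 in WT and 7.81, 7.20 and 7.64 in KO. These groups overlapped, and the log2 difference was 0.01 ± 0.18 (SE, limma, adjusted p = 0.971; 95% interval -0.41 to 0.43). Its sign turned under some alternatives, as given in the closing section. The value of Ctps2 rests on 1 probe, with raw signals of 267.8 to 304.8, and 2 further Ctps2 probes were not detected on any array. Measured within each array, Ctps minus Ctps2 was lower in KO by a log2 difference of -0.65, with an exact permutation p of 0.1 (2-sided, 2 pairs of paralogs compared, adjusted p also 0.1), the smallest possible.

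Tyms, which makes the thymidine nucleotide, read 12.17, 12.19 and 12.10 in WT and 11.87, 12.33 and 12.34 in KO. KO replicate 1 lay below the WT arrays, and the other KO arrays lay above them. The log2 difference was 0.02 ± 0.15 (SE, limma, adjusted p = 0.919), with a 95% interval from -0.33 to 0.38. Its sign turned under median scaling of the arrays, with the mean of its probes, and without WT replicate 3, KO replicate 2 or KO replicate 3. The 5 kept probes of Tyms ranged from -0.30 to 0.13, and 0 of them were called. The platform also names a probe for the pseudogene Tyms-ps, and near-identical copies can share a signal.

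Of the subunits of ribonucleotide reductase, Rrm2 was called higher and Rrm1 was not called. Rrm1, the large subunit, read 12.48, 12.50 and 12.66 in WT and 12.39, 12.66 and 12.29 in KO. The groups overlapped, with KO replicate 2 among the WT arrays. The log2 difference was -0.10 ± 0.14 (SE, limma, adjusted p = 0.598), with a 95% interval from -0.42 to 0.21. A further bright Rrm1 probe was at -0.34 with groups that did not overlap, but it did not pass the test (limma over all kept probes, adjusted p = 0.0700), and a dim one was at -0.06.

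Rrm2, the small subunit, read 10.90, 11.01 and 11.01 in WT and 11.52, 11.55 and 11.79 in KO. Each KO array lay above each WT array, as for 26.1% of all tested genes. The gene was 1.57-fold higher, a log2 difference of 0.65 ± 0.13 (SE, limma, adjusted p = 0.00558). Its mean was 10.97 ± 0.06 (SD, n = 3) for WT and 11.62 ± 0.15 (SD, n = 3) for KO. A second Rrm2 probe also rose, by 0.46 (limma over all kept probes, adjusted p = 0.0228). The dimmest Rrm2 probe, with raw signals of 221.5 to 299.7, was at -0.23 with KO below WT on every array and did not pass (limma, adjusted p = 0.262). With the mean of the 3 probes in place of the brightest, Rrm2 was at 0.29 and its call was lost (limma, adjusted p = 0.0617).

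The change of Rrm2 was set against that of Rrm1 within each array, a comparison added after the data were seen. Rrm2 minus Rrm1 was higher in KO by 0.75, without overlap between the groups, and the exact permutation p was 0.1 (2-sided), the smallest possible. Rrm2b, which encodes another small subunit known for its induction by p53, read 8.32, 8.13 and 8.35 in WT and 7.98, 8.22 and 7.95 in KO. The groups overlapped, and the log2 difference was -0.22 ± 0.13 (SE, limma, adjusted p = 0.232; 95% interval -0.52 to 0.09). The value of Rrm2b rests on 1 probe, and 2 further Rrm2b probes were not detected on any array. Rrm2 minus Rrm2b was higher in KO by 0.87 (exact permutation p = 0.1, adjusted p over the 2 paralog pairs 0.1). With the mean of each gene's probes, Rrm2 minus Rrm2b was 0.51 and Rrm2 minus Rrm1 was 0.46, an alternative chosen after the data were seen.

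**Figure D2:**
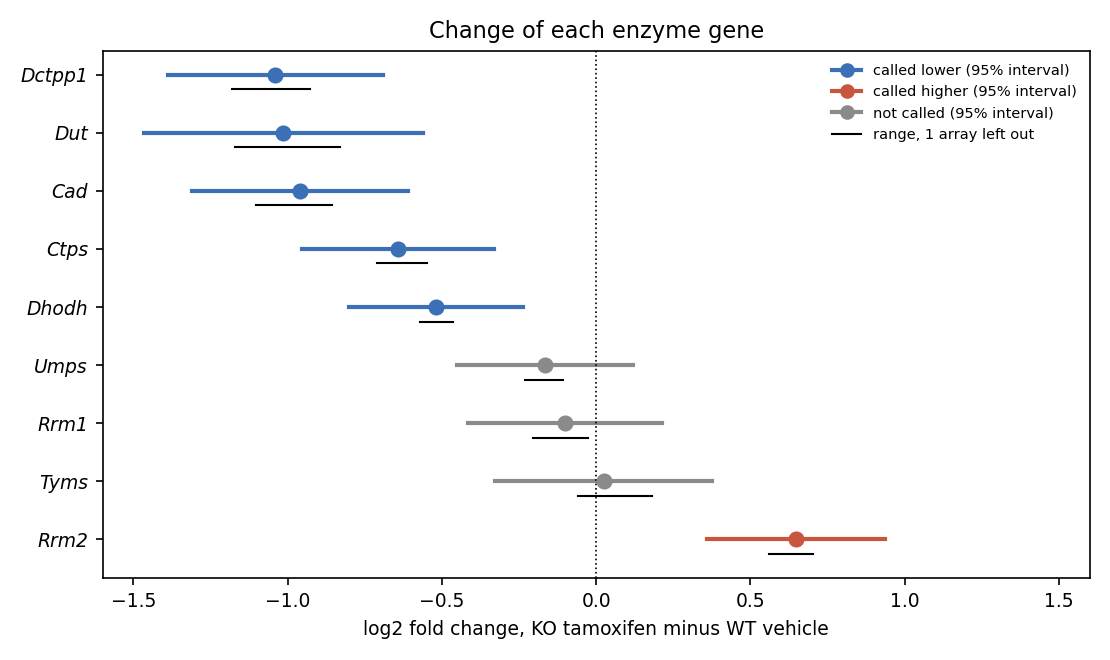
Log2 fold change (KO tamoxifen minus WT vehicle) of each enzyme gene, with its 95% interval as a thick bar and, as a thin black line below it, the range when 1 array at a time was left out. Dctpp1, Dut, Cad, Ctps and Dhodh lie left of 0 and Rrm2 right of 0 over the whole of both bars, while the intervals of Umps, Rrm1 and Tyms include 0.

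Both pool-cleaning genes were among the larger falls. Dut, which removes dUTP, read 10.15, 9.75 and 9.47 in WT and 8.61, 9.06 and 8.66 in KO. The WT arrays were spread more widely than for the other 8 genes, with an SD of 0.34, yet the lowest stayed above the highest KO array. Dut was 2.02-fold lower, a log2 difference of -1.01 ± 0.20 (SE, limma, adjusted p = 0.00551). The further Dut probe was at -0.75 without overlap between the groups and just missed the threshold (limma over all kept probes, adjusted p = 0.0505).

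Dctpp1, which hydrolyses dCTP, read 11.11, 11.26 and 10.76 in WT and 10.03, 10.05 and 9.92 in KO. The KO arrays lay close together, with an SD of 0.07, and all were below WT. Dctpp1 was 2.06-fold lower, the largest fall of the 9 genes, at a log2 difference of -1.04 ± 0.15 (SE, limma, adjusted p = 0.00189). It is measured by a single probe, as is Cad.

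Over the 23 kept probes of these genes, 7 were called lower, 2 higher and 14 neither when all 19082 kept probes of the arrays were tested together. Of all kept probes 16.5% were called lower and 15.7% higher. The share of all kept probes without overlap between the groups was not counted. Probes of 1 gene share their target and are not replicates of each other. Probes of Umps, Rrm1, Rrm2 and Dut gave changes of different size, as did those of Tyms, and these differences were not tested.

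**Figure D3:**
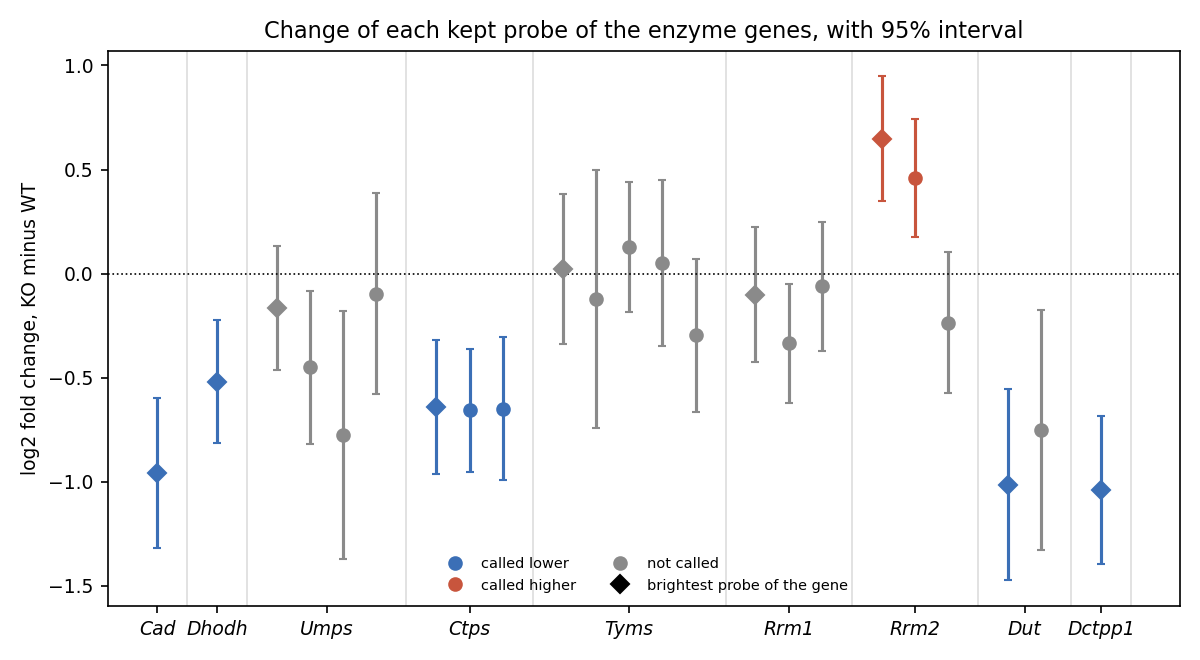
Log2 fold change of each of the 23 kept probes, grouped by gene, with 95% intervals, and the brightest probe of each gene as a diamond. The Ctps probes lie together near -0.65, the Umps probes spread from -0.77 to -0.10, and the dimmest Rrm2 probe lies below 0 while the other Rrm2 probes lie above it.

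The calls of the 5 lower genes held under every alternative run. With 1 array left out at a time, Cad ranged from -1.10 to -0.86, Dhodh from -0.57 to -0.47 and Ctps from -0.71 to -0.55. Dut ranged from -1.17 to -0.83 and Dctpp1 from -1.18 to -0.93. The highest adjusted p among these, 0.0469, was that of Dhodh, which was thus the nearest to losing its call. Rrm2 stayed called with each array left out, from 0.56 to 0.70 (limma, adjusted p up to 0.0272).

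Promoter sequences from RefSeq (GRCm38.p6) were read because the genes moved in different directions. Windows from 250 bases before to 50 after the start were found for 8 of the 9 genes, all but Dhodh. They were searched on both strands for 3 motifs, none of which contains another. These were the E-box CACGTG, which MYC with its partner MAX can bind, the CCAAT box, which the factor NF-Y binds, and the E2F forms TTTCCCGC, TTTCGCGC, TTTGCCGC and TTTGGCGC. The E-box occurred in 7.15% of all 32851 windows and in that of 1 gene, Tyms, which was not called. The CCAAT box occurred in 37.4% of all windows and in those of Rrm1, Rrm2 and Dctpp1. The E2F forms occurred in 2.26% of all windows and in 0 of the 9 windows of these genes (Ctps has a pair of starts). A match is a description and shows no binding, and a window without one says only that these letters are not in it.

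The promoters of 4 genes are shown up to the annotated edge of the gene, 5′ to 3′ on the gene's strand, with the motif matches in capitals. Rrm1 (chr7:102441445-102441694, + strand) and Rrm2 (chr12:24708004-24708253, + strand) encode the reductase subunits, of which Rrm2 was called higher and Rrm1 was not called. Dctpp1 (chr7:127260668-127260917, − strand) fell the most, and Tyms (chr5:30073646-30073875, − strand) holds the E-box.
Rrm1: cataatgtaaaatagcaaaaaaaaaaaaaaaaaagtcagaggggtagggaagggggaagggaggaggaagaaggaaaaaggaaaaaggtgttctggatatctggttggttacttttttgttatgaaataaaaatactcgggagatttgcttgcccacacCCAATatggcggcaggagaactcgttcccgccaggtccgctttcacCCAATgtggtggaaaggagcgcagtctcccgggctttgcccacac
Rrm2: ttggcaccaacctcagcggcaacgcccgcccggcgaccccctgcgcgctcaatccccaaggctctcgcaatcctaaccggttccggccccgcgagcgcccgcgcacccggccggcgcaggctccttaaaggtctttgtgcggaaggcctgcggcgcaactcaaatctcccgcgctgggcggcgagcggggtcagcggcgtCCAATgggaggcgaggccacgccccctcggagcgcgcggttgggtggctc
Dctpp1: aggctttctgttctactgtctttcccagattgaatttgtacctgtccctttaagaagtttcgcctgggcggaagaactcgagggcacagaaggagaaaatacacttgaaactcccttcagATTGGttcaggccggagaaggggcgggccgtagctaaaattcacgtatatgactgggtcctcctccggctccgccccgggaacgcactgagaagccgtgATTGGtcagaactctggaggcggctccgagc
Tyms: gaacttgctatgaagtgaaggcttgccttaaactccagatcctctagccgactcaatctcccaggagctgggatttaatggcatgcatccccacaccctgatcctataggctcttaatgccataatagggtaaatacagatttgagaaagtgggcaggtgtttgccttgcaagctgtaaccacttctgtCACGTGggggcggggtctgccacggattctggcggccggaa
The CCAAT boxes begin 91 and 45 bases before the start in Rrm1 and 50 bases before it in Rrm2. In Dctpp1 they lie on the other strand, as ATTGG, 130 and 31 bases before the start. The printed stretch of Tyms stops at the annotated edge of the gene, 20 bases before the start site that its window was built on. Its E-box begins 41 bases before the end of the printed stretch and 61 bases before that start site. The CCAAT box was thus present in a gene that rose, a gene that fell and a gene that was not called.

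Genes around these enzymes were counted from 10 lists written from textbook knowledge. The lists were chosen with earlier results of these data known, so their counts are a description. They held 109 genes in all, of which 87 were tested. Of these, 29 fell and 9 rose. By comparison, 17.1% of all tested genes were called lower and 19.7% higher, and these shares belong beside each list count below. In the salvage of pyrimidines and transport of nucleosides, 2 of 11 tested genes fell and 1 rose, at a median of -0.13. Dctd, which deaminates dCMP to the dUMP used by thymidylate synthase, fell by 1.27 ± 0.14 (SE, limma, adjusted p = 0.000826). Uck2, a uridine and cytidine kinase, was at -0.44. The 1 rise was that of Dguok, the mitochondrial deoxyguanosine kinase gene, whose enzyme acts on purine deoxynucleosides. Dguok was at 0.57, or at 0.28 and not called with the mean of its probes (limma, adjusted p = 0.138). The median of the list was slightly above 0, at 0.0036, without WT replicate 1. Leaving out any WT replicate or KO replicate 3 left 1 lower gene, and leaving out WT replicate 3 left 0 higher genes. Tk1, the cytosolic thymidine kinase gene of the S phase, was at 0.13 ± 0.17 (limma, adjusted p = 0.577), a gene chosen after its value was seen.

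Kinases of mono- and diphosphates moved in both directions, with 2 of 8 lower and 3 higher. Without WT replicate 3 the counts were 1 and 1, and without WT replicate 1 or 2 or KO replicate 3 the count of lower genes was 1. Nme2, a nucleoside diphosphate kinase, fell by 0.81 (by 0.53 with the mean of its probes, still called), and the interferon-induced UMP and CMP kinase gene Cmpk2 rose by 1.10. Nme3 and Nme4, of the same family as Nme2, were at 0.82 and 0.50, and the groups overlapped for Nme3. Nme1 of that family was also called lower, at -0.50 (limma, adjusted p = 0.0288). Of 11 tested genes of nucleotide breakdown and pool cleaning, 5 fell and 3 rose. The count of 5 was 3 without either of WT replicates 1 and 3 or either of KO replicates 2 and 3. Upb1, which ends the breakdown of pyrimidine bases, fell by 1.76 ± 0.23 (SE), and Tymp, thymidine phosphorylase, was at -0.78. Samhd1, which hydrolyses dNTPs, rose by 1.03 ± 0.21 and the nucleotidase gene Nt5c3 by 0.84 ± 0.17 (limma, adjusted p of 0.00673 and 0.00657).

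The folate cycle feeds thymidylate synthase with its one-carbon unit. Of its 6 tested genes 3 fell and 0 rose by limma, with 3 and 0 at an unadjusted p under 0.05. The serine hydroxymethyltransferase genes Shmt1 and Shmt2 fell by 2.92 and 0.88, and the folate carrier gene Slc19a1 by 0.89. Among genes that supply aspartate, glutamine and ribose phosphate, 4 of 8 fell and 1 rose. The count of 4 was 2 without WT replicate 1 and 6 with the mean of each gene's probes. Prps2 and Prps1, which make the ribose donor PRPP, were at -0.87 and -0.49. Pgls of the pentose phosphate pathway fell by 0.78, while Taldo1 of the same pathway was at 0.51.

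Purine synthesis was set beside pyrimidine synthesis. Of 9 tested de novo purine genes 7 fell and 0 rose by limma (7 and 0 at an unadjusted p under 0.05), at a median of -0.77. Atic fell by 1.02, Adsl by 0.92, Impdh1 by 0.87 and Ppat by 0.86. Of 5 tested genes of uracil excision, which acts on uracil that has reached DNA, 3 fell and 0 rose by limma (3 and 0 unadjusted). Apex1 fell by 1.11, Ung by 1.10 and Tdg by 0.73.

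**Figure D4:**
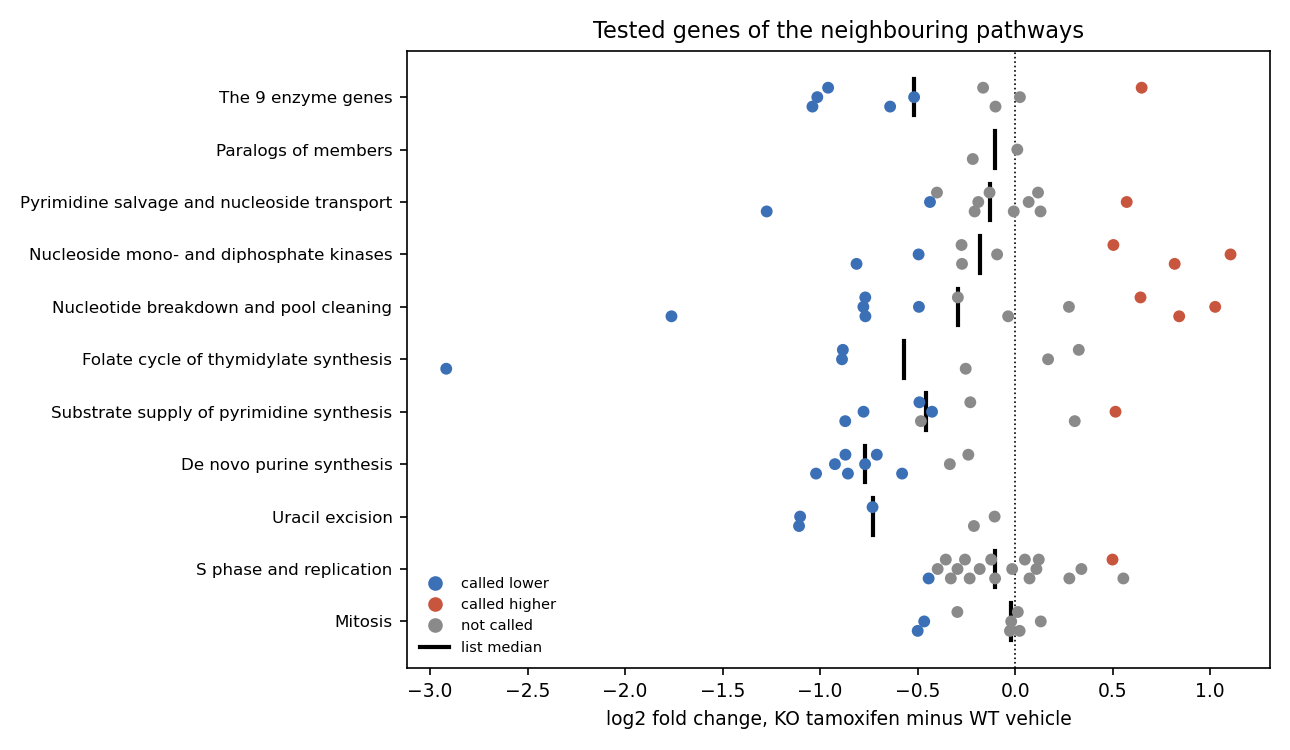
Log2 fold change of each tested gene in the 9 enzyme genes and in 10 neighbouring lists, 1 point per gene, coloured by call, with the list median as a black bar. The medians are -0.52 for the enzyme genes, -0.77 for purine synthesis and -0.73 for uracil excision, against -0.10 for S phase and replication and -0.02 for mitosis.

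Genes of the S phase and of mitosis bear on Rrm2 and Tyms, whose transcripts are known to be highest in dividing cells. Of 19 tested S phase genes 1 fell and 1 rose, at a median of -0.10, and the values were -0.44 for the helicase gene Mcm6 and 0.50 for the cyclin gene Ccne2. Without KO replicate 1 the counts were 0 lower and 3 higher and the median was 0.03. Both counts were 0 without WT replicate 2 or KO replicate 3 (limma), and 0 rose without WT replicate 1 or 3. Of 8 tested mitosis genes 2 fell and 0 rose by limma (3 and 0 unadjusted), at a median of -0.02, with Bub1b at -0.50 and Aurkb at -0.47. The count of 2 was 0 without WT replicate 3 and 1 without WT replicate 1 or 2 or KO replicate 1 or 3, and the median was 0.01 without WT replicate 2. The part of the cell cycle in the changes of Rrm2, Tyms and Rrm1 was not tested.

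Several calls named from these lists were lost when 1 array was left out (limma). Uck2 was called in 1 of the 6 cases, with adjusted p up to 0.0993, and Nme3, Tymp, Ccne2, Mcm6 and Aurkb were each called in 2 of 6. Bub1b was called in 4 of 6, and Dguok, Nme4 and Prps1 in 5 of 6. Taldo1 lost its call under median scaling of the arrays (adjusted p = 0.0783), as did Dguok, Nme3, Nme4 and Ccne2. Tymp moved to -0.31 without background correction and kept its call.

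Markers of other cell types moved with the groups. All 7 tested macrophage and dendritic cell markers rose, as did 4 of 6 erythroid markers and 5 of 7 of stroma, endothelium and epithelium. Among all tested genes 19.7% were called higher and 17.1% lower. The count of 5 was 1 without WT replicate 3, 2 without KO replicate 1 or 3, 3 without WT replicate 1 or 2, and 2 with no filter on dim probes. The summed log2 signal of the macrophage and dendritic cell list was 13.15 to 13.32 on the WT arrays and 14.02 to 14.64 on the KO arrays. For erythroid markers it was 16.003 to 16.17 and 16.36 to 16.56, and for stroma, endothelium and epithelium 10.46 to 10.54 and 10.96 to 11.41. Thymocyte and T cell markers summed to 15.34 to 15.44 in WT and 15.27 to 15.31 in KO, and 3 of 9 fell. Those were Rag1, Dntt and Ptcra, genes of immature thymocytes, at -2.80, -1.25 and -1.94. The T cell receptor complex genes Cd3d, Cd3e and Cd3g were at -0.16, -0.05 and 0.10 and did not pass. Probes of Cd8a, Rag2, Ms4a1, Pax5, Itgax, Epcam and Krt5 did not reach the detection filter.

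Neutrophil and B cell lists overlapped between the groups, at 12.11 to 12.65 and 11.82 to 13.91 for neutrophils and 8.24 to 9.14 and 8.13 to 10.11 for B cells. Of their 7 and 3 tested genes, 0 passed the limma test, and 0 had an unadjusted p under 0.05. This rests on KO replicate 1: without it all 7 neutrophil genes and 1 of the 3 B cell genes were called higher, and the neutrophil median moved from 0.71 to 1.44. Of the neutrophil genes, 4 were called higher with array weights and 3 with the replicate block. On KO replicate 1 both lists were lowest of the 3 KO arrays. The same array read lowest of all arrays for Tyms and Dut. Among the KO arrays it read lowest for Rrm2 too, but highest for Cad, Dhodh and Ctps. The part of other cell types in the changes of the enzyme genes was not tested.

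**Figure D5:**
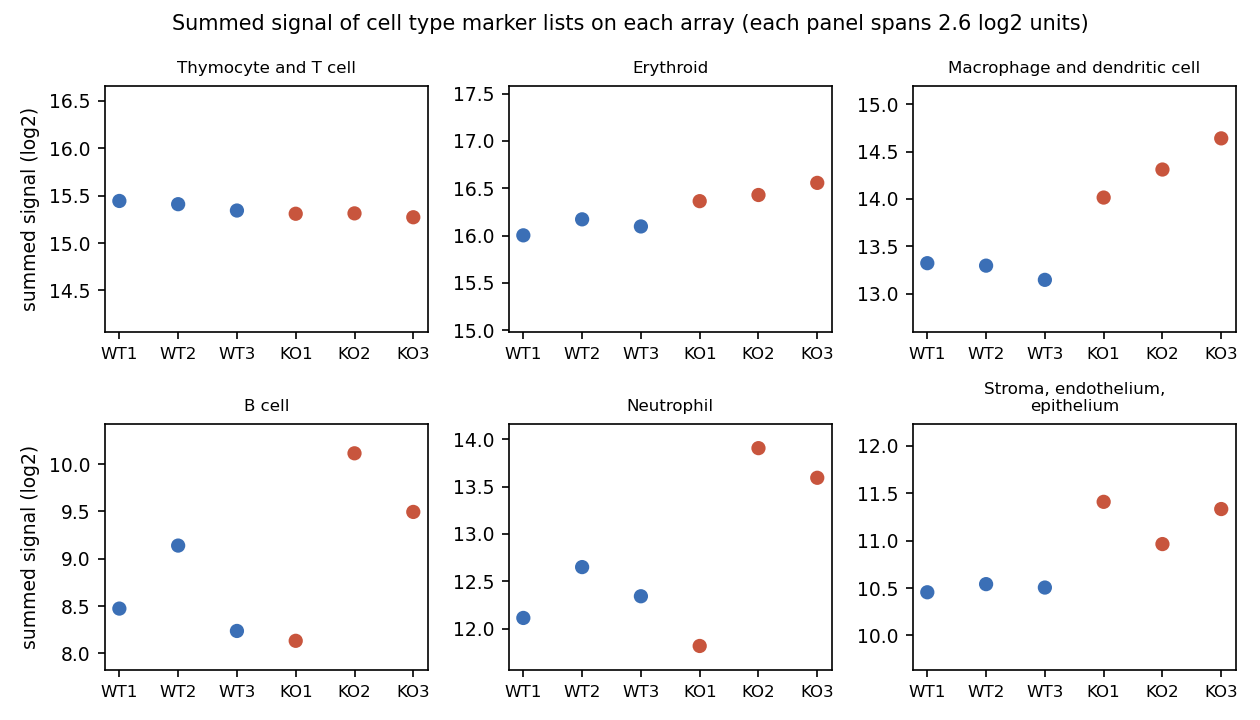
Summed normalised signal (log2) of the tested genes of 6 cell type marker lists on each array, blue for WT vehicle and red for KO tamoxifen. The KO arrays lie above the WT arrays for the macrophage, erythroid and stromal lists and slightly below them for the thymocyte and T cell list, and the groups overlap for B cell and neutrophil markers.

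The tested genes whose pattern over the 6 arrays was most like the mean of the 9 enzyme genes were Aimp2, Pop4, Fastkd1, Ythdf1 and Gm266, with Pearson r of 0.998, 0.997, 0.997, 0.997 and 0.996. The arrays fall into 2 groups, so this likeness follows the difference between them. Of the enzyme genes, Dctpp1 followed their common mean most closely at r = 0.990, Rrm2 ran against it at -0.967, and Tyms was at -0.021. That mean contains the gene itself in each case and also follows the difference between the groups, so these values are a description.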

How the data were processed

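RNA of 3 WT vehicle and 3 KO tamoxifen mice was read on 6 Illumina bead arrays, and groups were taken from the sample titles. Per the file headers, the deposited raw table holds an intensity and a detection p-value for each of 45281 probes per array. The intensities show no background subtraction or scaling between arrays. A deposited log2 table equals the log2 of the quantile-normalised raw intensities within 0.011 and is therefore on a plain log2 scale without centring of genes. The scanner software is not given in the sources used here. Of the columns with sample values, 0 were left aside.

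Intensities were processed with neqc in limma 3.58.1 (R 4.3.3): normexp background with negative controls inferred from the detection p-values, offset 16, quantile normalisation and log2. Probes detected at p under 0.05 on at least 3 arrays were kept (19082). By the platform annotation 34885 probes carried 1 symbol, 10378 carried none and 18 carried several. RefSeq (GRCm38.p6) held the Entrez identifier of 34807. The brightest probe represented each gene. Changes were tested with lmFit and eBayes, 2-sided, with group as the only term, and errors of changes are SE of that fit. The fit was tested on simulated data. The mice are called biological replicates in the titles. Figures used matplotlib 3.10.9.

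Genes named are all members and the paralogs, Myc, at most 4 called genes per list, ranked by size of change, and the 5 genes most like the members. Tk1, Nme1 and the marker genes named were chosen after their values were seen. Members and lists were chosen with earlier results of these data known. Alternatives were other background corrections, scaling, the deposited log2 table, filters, probe summaries, a replicate block, eBayes settings, array weights and leaving out each array. Same-numbered WT and KO arrays deviated from their group means with r of 0.172, 0.119 and -0.0804 across genes, so the numbers were not taken to pair the mice.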

Additional observations from a re-analysis of the deposited data

How the results depend on the processing

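The count of members called lower was 5 under all 17 alternatives, and that of members called higher was 1 under all but the mean of a gene's probes, where it was 0. Over all genes 1748 were called lower and 2015 higher. With single arrays left out these counts ran from 1108 to 1835 and from 1347 to 2014, with 1108 lower without WT replicate 3 and 1347 higher without KO replicate 3. Tested among all 19082 kept probes, 3143 probes were lower and 3004 higher, which counts probes and not genes. Leaving out WT replicate 1 gave 1120 lower genes. Over the 10 pathway lists the count of 29 lower genes ran from 22 to 29 and that of 9 higher genes from 4 to 11 with single arrays left out, and 4 were higher without WT replicate 3 and under median scaling of the arrays. For the counts of genes, the cause of these shifts was not tested. With the replicate block the counts were 1697 lower and 2016 higher over all genes and 5 and 1 for the members, and the block ended the call of Uck2 (limma, adjusted p = 0.0520). WT replicate 2 correlated best with KO replicate 3, so same numbers did not always go together.

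The sign of Tyms turned to -0.12 under median scaling of the arrays, -0.043 with the mean of its probes, -0.0049 without WT replicate 3, -0.047 without KO replicate 2 and -0.059 without KO replicate 3, and it was 0.18 without KO replicate 1. Ctps2 turned to -0.11 with array weights, -0.099 without WT replicate 2, -0.12 without KO replicate 1 and -0.034 without KO replicate 3, and it was 0.19 without KO replicate 2. None of these values passed the test. The difference of Ctps minus Ctps2 ran from -0.85 to -0.51 and that of Rrm2 minus Rrm2b from 0.73 to 0.99 with single arrays left out, and the latter was 0.51 with the mean of probes. Rrm2 minus Rrm1 ran from 0.59 to 0.89, and was 0.46 with the mean of probes. Signals near background, as for the dim probes of Umps, Tyms and Rrm1, limit what can be measured there.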
